A study of Mus musculus with 20 samples.

Results

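The 10 genes described here encode the machinery that carries a cell through G1: the D-type cyclins Ccnd1, Ccnd2 and Ccnd3, the E-type cyclins Ccne1 and Ccne2, the cyclin-dependent kinases Cdk2, Cdk4 and Cdk6, and the kinase inhibitors Cdkn1b and Cdkn2c. They were taken by symbol from the 56941 genes of the count table, as a set chosen with earlier results of these data known. All 10 were among the 13755 genes that passed the filter on low counts. RNA was sequenced from the mouse microglial line BV-2, which is immortalized, and from a derivative labelled RGS10 knockout, each given medium (vehicle) or interferon gamma (IFNγ), the cytokine that activates microglia and macrophages, at 10 ng/mL. All cells were taken after 48 h. The 4 groups were wild-type vehicle, wild-type IFNγ, knockout vehicle and knockout IFNγ, with 5 libraries each. Replicates 1 to 3 of every group belonged to batch 1, replicate 4 to batch 2 and replicate 5 to batch 3. How the knockout was made, and whether the line is 1 clone, is not given in the sources used here. The series title ties RGS10, a regulator of G protein signalling, to BV-2 migration, and the labels state no question about the cell cycle.

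D-type cyclins are made in response to growth signals and bind Cdk4 or Cdk6. These kinases begin the phosphorylation of the retinoblastoma protein, which holds back the E2F transcription factors. Once E2F is released it drives the E-type cyclins, whose partner Cdk2 completes the phosphorylation, and the enzymes of DNA replication. INK4 proteins such as Cdkn2c (also called p18) bind Cdk4 and Cdk6 and keep the D-type cyclins off them, whereas Cdkn1b (also called p27) of the CIP/KIP family mainly inhibits Cdk2 complexes. IFNγ is known to slow the division of macrophages, and BV-2 cells, like other immortalized lines, divide without pause in culture.

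Levels are in CPM, counts relative to library sizes that were scaled by the trimmed mean of M-values (TMM). Changes are log2 ± SE from edgeR's quasi-likelihood test with batch as a term, and a gene was called where the Benjamini-Hochberg adjusted p over all genes tested was under 0.05. Libraries held 15866749 to 29157740 counts, and the lowest count of any member in a library was 12, for Ccne2. The 4 IFNγ libraries of batches 2 and 3 stood apart. The nuclear RNA Malat1 was at 955 to 1514 CPM of plain library totals in them, against 51.4 to 166 CPM in vehicle libraries, and their TMM factors were 0.635 to 0.892 against 1.01 to 1.12. In batch 1 Malat1 was at 355.5 to 386 CPM in wild-type IFNγ and 55.95 to 62.7 CPM in knockout IFNγ libraries, so that values of batch 1, or without the 4 libraries, still carry a difference in nuclear RNA in 1 line. Of 8 mitochondrially encoded genes 4 were called lower in the knockout under IFNγ and 0 higher, beside 19.0% and 20% of all genes (median −0.91 log2, and −1.69, 0.93 and −0.064 log2 in batches 1, 2 and 3). Called changes of the members are therefore also given by batch, several of them without the 4 libraries as well, and the part of library quality in the results was not tested. All 10 microglia and macrophage markers were at 1 CPM or more in every library, and their summed level was 2306 to 3380 CPM under vehicle, 4248 to 7833 CPM in wild-type IFNγ and 3436 to 4583 CPM in knockout IFNγ libraries. Single markers differed between the lines. Under vehicle Trem2 was called higher in the knockout (0.64 ± 0.15 log2). Aif1 (−2.86 ± 0.29 log2) and Csf1r (−0.77 ± 0.17 log2) were called lower. These were 1 higher and 2 lower, beside 12.5% and 14.8% of all genes. Under IFNγ 0 were higher and 5 lower, beside 20% and 19.0%. Of 18 markers of other cell types 13 stayed under 1 CPM in every library, the defining markers Aqp4 and Mog had no read, and the sum of all 18 was 2.99 to 40.5 CPM. Rgs10 itself was at 63.03 ± 6.62 CPM in wild-type vehicle, 29.6 ± 11.7 in wild-type IFNγ, 28.2 ± 4.56 in knockout vehicle and 24.4 ± 14.7 CPM in knockout IFNγ libraries (SD, n = 5). It was thus lowered but not absent in the knockout under vehicle (−1.17 ± 0.17 log2, adjusted p = 3.2e-05) and not called different under IFNγ (−0.33 ± 0.17 log2, adjusted p = 0.13). IFNγ itself lowered it in wild-type cells (−1.17 ± 0.17 log2, adjusted p = 1e-05). In bulk RNA, fewer cells that express a gene and less of its RNA per cell cannot be told apart.

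In wild-type cells IFNγ lowered the RNA of Ccnd2, Ccnd3, Cdk2, Cdk4 and Cdkn2c and raised that of Ccnd1 and Cdkn1b. In the knockout it lowered Ccnd2 and Cdk4 and raised Cdkn1b. Knockout cells held more Ccnd3 and Cdk6 than wild-type cells under vehicle. Under IFNγ they held more Ccnd3, Cdk2, Cdk4, Cdk6 and Cdkn2c and less Ccnd1. Of these, Cdk4 and Ccnd1 were just inside the threshold (edgeR adjusted p = 0.0493 and 0.0471), and each call held in 8 of 31 alternative settings of the fit. Against the background of all genes tested these counts were 7 of 10 called with IFNγ in wild-type cells, where 58.9% of genes were called, and 3 of 10 with IFNγ in the knockout, where 43.2% were. By direction they were 2 higher and 5 lower in wild-type cells (29.0% and 29.9% of genes) and 1 higher and 2 lower in the knockout (21.4% and 21.8%). They were 2 of 10 between the lines under vehicle, where 27.3% of genes were called, and 6 of 10 between the lines under IFNγ, where 39.0% were. Of these 2 were higher and 0 lower in the knockout under vehicle (12.5% and 14.8% of genes), and 5 higher and 1 lower under IFNγ (20% and 19.0%). The IFNγ response itself differed between the lines for 1 of 10, Cdkn2c, where 6.5% of genes differed (3.63% with a higher and 2.86% with a lower value in the knockout). That call too was just inside the threshold (edgeR adjusted p = 0.0485) and held in 11 of 30 alternative settings. Groups of libraries did not overlap for 4 of 10 members with IFNγ in wild-type cells (36.2% of genes tested), 1 of 10 in the knockout (27.6%), and 2 of 10 between the lines under vehicle (24.9%) and again under IFNγ (15.1%). The medians of the 10 changes were −0.55, −0.13, −0.065 and 0.15 log2 in these 4 comparisons, beside −0.016 to 0.025 log2 over all genes. The comparisons share groups: both IFNγ groups and both vehicle groups enter 2 comparisons each.

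**Figure D1:**
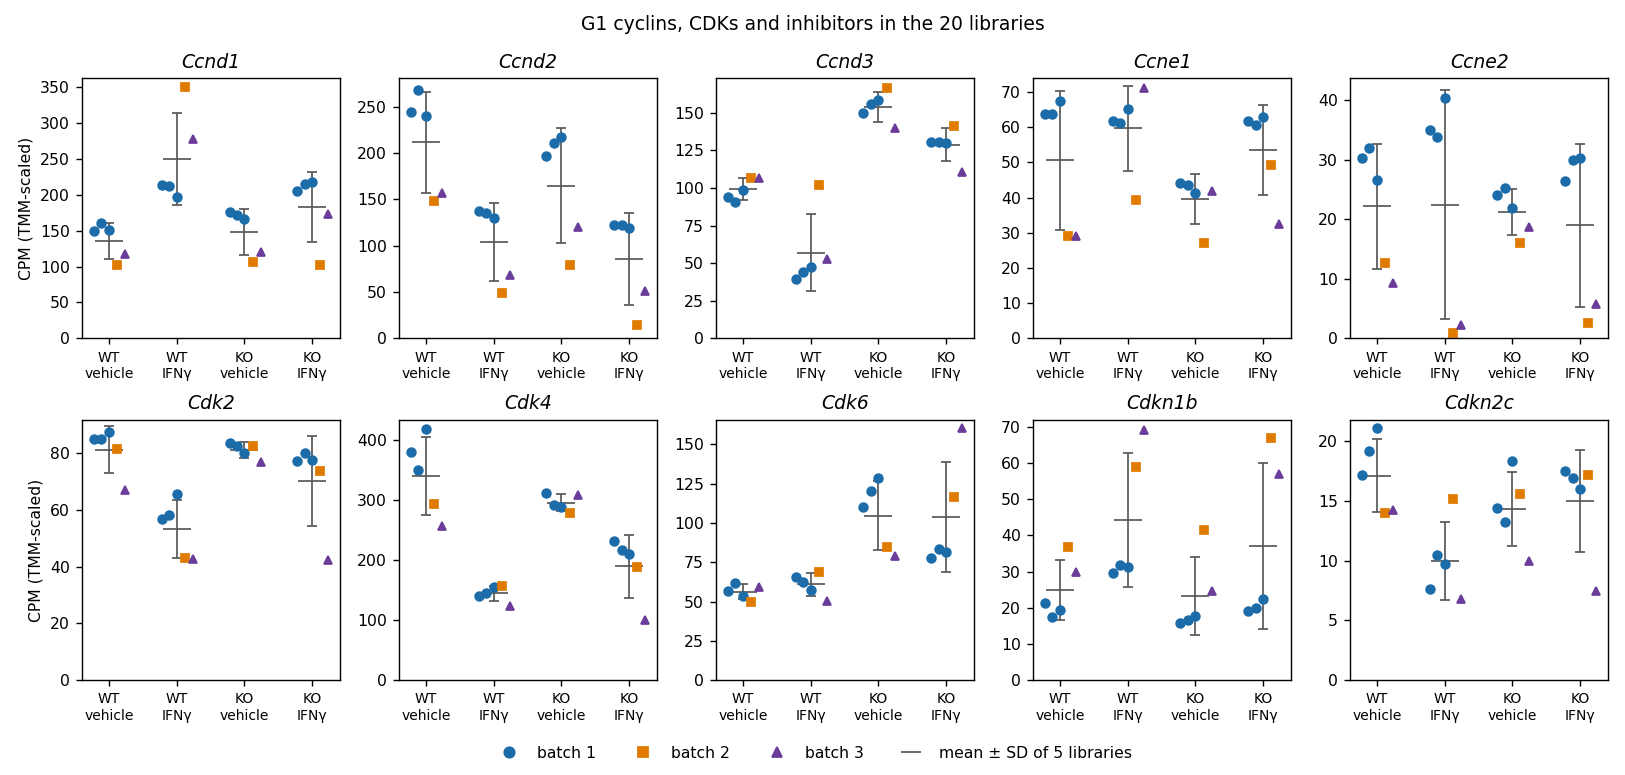
Level of each of the 10 genes (CPM on TMM-scaled library sizes, linear axes from 0) in the 20 libraries, by group. Circles are batch 1, squares batch 2 and triangles batch 3, and bars give the mean ± SD of 5 libraries; Cdk4 fell from 256 to 417 CPM in wild-type vehicle to 124 to 156 CPM in wild-type IFNγ libraries, and Ccne2 dropped under 6 CPM in the IFNγ libraries of batches 2 and 3.

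**Figure D2:**
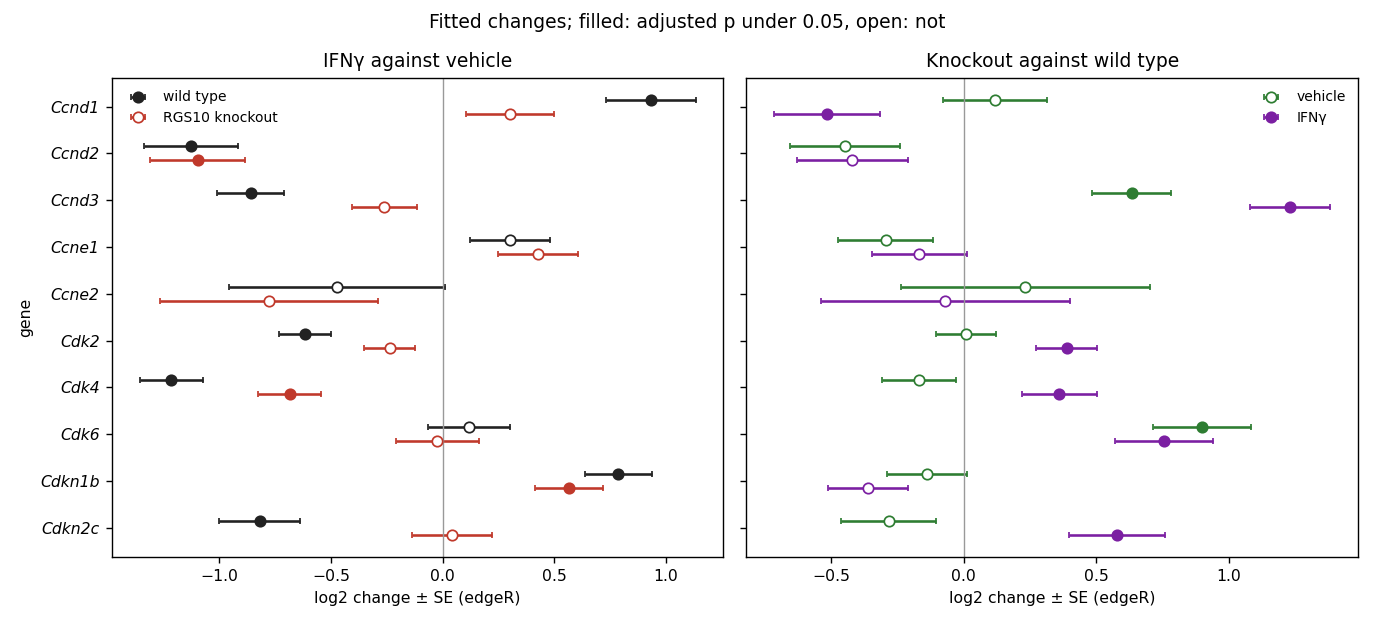
Fitted log2 change ± SE of each gene with IFNγ in either line (left) and between the lines under either treatment (right), with filled points for adjusted p under 0.05. Ccnd3 and Cdk6 lie to the right of 0 in both comparisons of the lines, and Ccnd2 and Cdk4 to the left of 0 with IFNγ in both lines.

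The counts of calls differed with the batches and the library scaling used. In batch 1 alone, whose replicates varied least (biological coefficient of variation 5.89%, against 24.2% over all 20 libraries), 8, 8, 8 and 8 of 10 members were called in the 4 comparisons and 7 in the difference of the responses, where 74.0%, 56.5%, 58.4%, 69.2% and 51.3% of all genes were called. Here and below, p-values from batch 1 alone measure the spread within that batch and not between batches. Without the 4 IFNγ libraries of batches 2 and 3 the counts were 8, 7, 3, 6 and 6, beside 66.7%, 47.1%, 53.8%, 58.5% and 38.0% of all genes. Scaling by plain totals shifted all genes, to a median of −0.21 log2 with IFNγ in wild-type cells, −0.16 in the knockout and 0.13 between the lines under IFNγ. The share of calls that were higher went there from 49.2% to 36.7%, from 49.5% to 38.5% and from 51.4% to 62.4%. The members' own split on plain totals was 2 higher and 5 lower in wild-type cells, 0 and 3 in the knockout, 2 and 0 between the lines under vehicle and 5 and 0 under IFNγ. Changes below are relative to TMM scaling.

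Per kilobase of union exon length Cdk4 and Ccnd1 came before the other members in all 4 groups, and the order of the others differed between groups. Cdkn1b, for example, had rank 5 in wild-type IFNγ and rank 10 in knockout vehicle libraries. In wild-type vehicle libraries Cdk4 stood at 104 ± 19.9 CPM per kb and Ccnd1 at 28.9 ± 5.36, followed by Ccnd2 at 22.5 ± 5.85, Ccne1 at 19.0 ± 7.42, Cdk2 at 13.1 ± 1.31 and Ccnd3 at 11.3 ± 0.826 CPM per kb (SD, n = 5). Cdkn2c, Ccne2, Cdkn1b and Cdk6 were between 4.02 and 6.37 CPM per kb. The gaps from Cdk4 to Ccnd1, from Ccnd1 to Ccnd2, from Cdk2 to Ccnd3 and from Ccnd3 to Cdkn2c were larger than the larger SD of the pair, and the other neighbours did not differ beyond it. In knockout vehicle libraries Ccnd3 came level with Ccnd2, at 17.6 ± 1.13 and 17.5 ± 6.56 CPM per kb, but per longest transcript Ccnd3 made up 38.8% and Ccnd2 23.95% of the D-type cyclins there. The lowest member was Cdk6 in wild-type vehicle, Cdkn2c in wild-type IFNγ, Cdkn1b in knockout vehicle and Ccne2 in knockout IFNγ libraries. In none of the 4 groups was it apart from the next member by more than the larger SD. Cdk6 has 13989 bases of union exons and 978 of coding sequence, so that its place depends on the length used. The place of Ccnd1 does too. By coding length it made up 29.99% of the D-type cyclins in wild-type vehicle libraries, against 47.1% for Ccnd2.

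Among the D-type cyclins, Ccnd1 rose with IFNγ in wild-type cells while Ccnd2 and Ccnd3 fell. Ccnd1 (ENSMUSG00000070348) stood at 149.5, 161, 151, 102 and 117 CPM in wild-type vehicle libraries, in the order of replicates 1 to 5 used throughout. With IFNγ these became 214, 212, 196.5, 351 and 278 CPM. No IFNγ library was as low as any vehicle library, and the highest values were those of batches 2 and 3. The rise was 0.93 ± 0.20 log2 (1.91-fold, adjusted p = 0.00051), with 0.43, 1.79 and 1.25 log2 in batches 1, 2 and 3. It was 0.61 log2 without wild-type IFNγ replicate 4 and 0.41 log2 without the IFNγ libraries of batches 2 and 3. Knockout vehicle libraries held 176, 172, 166, 106 and 119.8 CPM and knockout IFNγ libraries 206, 215, 219, 102 and 174 CPM. Here the groups overlapped, since IFNγ replicates 4 and 5 lay below the highest vehicle library. The change in the knockout was 0.30 ± 0.20 log2 (adjusted p = 0.22). It passed in batch 1 alone (0.34 log2, adjusted p = 9.7e-07).

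Between the lines, Ccnd1 differed by 0.12 ± 0.20 log2 under vehicle (adjusted p = 0.7). Under IFNγ it was 1.43-fold lower in the knockout (−0.52 ± 0.20 log2, adjusted p = 0.0471). That call rested on batches 2 and 3: by batch the difference was 0.039, −1.78 and −0.68 log2, and without the IFNγ libraries of batches 2 and 3 it was 0.065 log2 (adjusted p = 0.39). It held in 8 of 31 alternative settings. Leaving out any 1 of 17 libraries ended it, most of all wild-type IFNγ replicate 4 (−0.21 log2, adjusted p = 0.24) and knockout IFNγ replicate 4 (−0.34 log2, adjusted p = 0.18). The response of Ccnd1 to IFNγ differed between the lines by −0.63 ± 0.28 log2 (adjusted p = 0.19), which was not called.

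Ccnd2 (ENSMUSG00000000184) fell with IFNγ in both lines. In wild-type cells it stood at 244, 268.5, 240.0, 148 and 157 CPM under vehicle and 138, 136, 130.2, 49.3 and 68.9 CPM with IFNγ. The groups did not overlap, and within each group batches 2 and 3 lay below batch 1. The fall was −1.13 ± 0.21 log2 (adjusted p = 0.00014), with −0.90, −1.59 and −1.19 log2 by batch. Knockout cells held 197, 211, 217.5, 79.6 and 119.7 CPM under vehicle and 122, 122, 119, 14.9 and 51.3 CPM with IFNγ. The lowest library of all 20 was knockout IFNγ replicate 4, and knockout vehicle replicates 4 and 5 lay within the range of the IFNγ group. The fall in the knockout was −1.10 ± 0.21 log2 (adjusted p = 0.00036), with −0.78, −2.42 and −1.22 log2 by batch and −0.69 log2 without the IFNγ libraries of batches 2 and 3. Both falls lost their call only in the fit without a batch term (adjusted p = 0.0565 and 0.11), of 31 settings. The responses of the lines differed by 0.028 ± 0.29 log2 (adjusted p = 0.97).

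Knockout cells had −0.45 ± 0.21 log2 of Ccnd2 relative to wild-type cells under vehicle (adjusted p = 0.12) and −0.42 ± 0.21 log2 under IFNγ (adjusted p = 0.12). Neither was called, and the sign was the same in all 3 batches (−0.27, −0.90 and −0.39 log2 under vehicle and −0.15, −1.73 and −0.43 log2 under IFNγ). The vehicle difference passed in 5 of 31 settings, one of them without knockout IFNγ replicate 4 (−0.43 log2, adjusted p = 0.0056), where the biological coefficient of variation over all genes was 21.8%.

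Ccnd3 (ENSMUSG00000034165) was the D-type cyclin called different between the lines under both treatments. It stood at 94.1, 90.6, 98.4, 106.5 and 107 CPM in wild-type vehicle and 149.7, 156, 158, 166 and 139.9 CPM in knockout vehicle libraries. Every knockout library lay above every wild-type one, a difference of 0.63 ± 0.15 log2 (1.55-fold, adjusted p = 0.0029) with 0.71, 0.64 and 0.39 log2 by batch. With IFNγ wild-type libraries held 39.2, 44.1, 47.3, 102 and 52.5 CPM and knockout libraries 130.5, 131, 130.0, 141 and 111 CPM. Again no libraries overlapped, and the difference was 1.23 ± 0.15 log2 (2.35-fold, adjusted p = 2.9e-06), with 1.58, 0.47 and 1.08 log2 by batch. Both calls held in 30 of 31 settings and were lost in batches 2 and 3 alone (0.51 and 0.73 log2), a fit on 8 libraries with 3 residual degrees of freedom.

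IFNγ lowered Ccnd3 in wild-type cells (−0.86 ± 0.15 log2, 1.81-fold lower, adjusted p = 6.5e-05). Batch 2 was the exception: its IFNγ library held 102.0 CPM and its vehicle library 106.5 CPM, so that the changes by batch were −1.12, −0.062 and −1.02 log2. In the knockout the change was −0.26 ± 0.15 log2 (adjusted p = 0.16), not called, with −0.25, −0.24 and −0.34 log2 by batch. Without wild-type IFNγ replicate 4, the batch 2 library, it passed at −0.27 log2 (adjusted p = 0.023). The response was 0.60 ± 0.21 log2 less negative in the knockout (adjusted p = 0.095), and this difference was called without that library (0.83 log2, adjusted p = 0.00095), on plain library totals (0.73 log2, adjusted p = 0.02) and in 4 of 30 settings in all. A pseudogene listed as Ccnd3-ps drew 7 counts over all libraries, so that few reads were assigned to it in place of Ccnd3.

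Per kilobase of union exon length the 3 D-type cyclins could be set against each other. Ccnd1 made up 45.95% ± 1.32 of their summed CPM per kb in wild-type vehicle libraries and 74.4% ± 6.61 in wild-type IFNγ libraries (SD, n = 5). In the knockout its share was 47.1% ± 1.66 under vehicle and 61.6% ± 4.36 with IFNγ. The ranges of vehicle and IFNγ libraries did not overlap in either line. Ccnd2 gave way, from 35.4% to 16.7% in wild-type and from 25.5% to 13.4% in knockout cells, whereas Ccnd3 went from 18.7% to 8.91% in wild-type cells and was 27.4% and 25.0% in the knockout. These shares depend on the length used. By coding length Ccnd2 came first in wild-type vehicle libraries, with 47.1% against 29.99% for Ccnd1, and Ccnd1 came first with IFNγ at 59.8%.

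**Figure D3:**
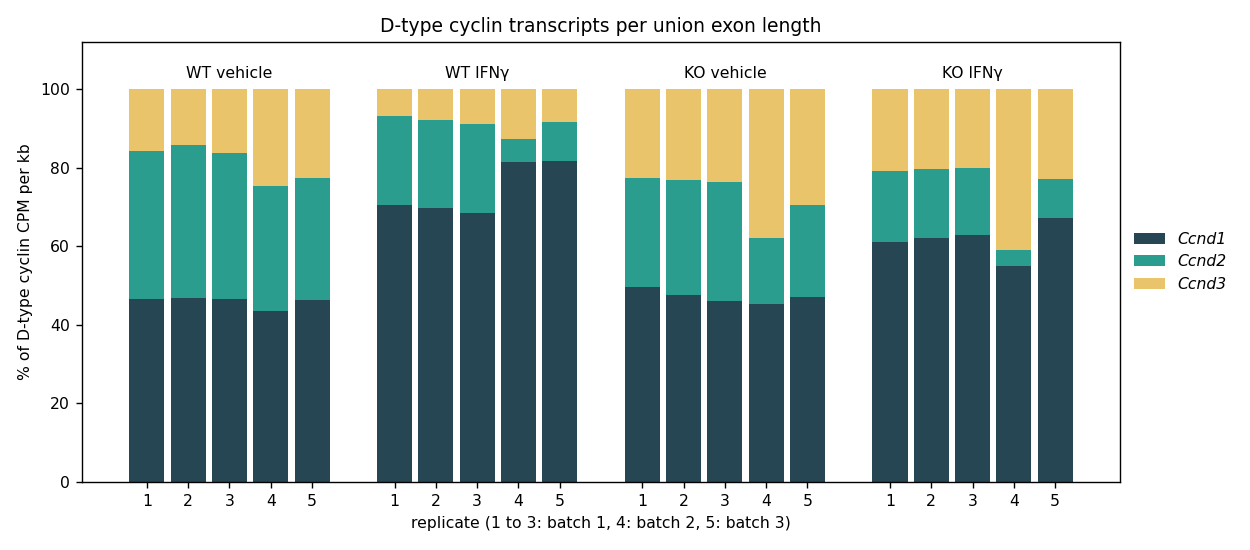
Share of each D-type cyclin in their summed CPM per kb of union exon length (percent, stacked bars from 0), 1 bar per library. Ccnd1 takes 43.6% to 49.6% in vehicle libraries of both lines and 68.5% to 81.6% in wild-type IFNγ libraries, against 55.0% to 67.1% in knockout IFNγ libraries.

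Of the kinases that D-type cyclins activate, Cdk4 fell with IFNγ in both lines. It was also the most abundant member per kilobase of union exon length in 3 of the groups, at 104 ± 19.9 CPM per kb in wild-type vehicle libraries, 90.9 ± 4.36 in knockout vehicle and 58.4 ± 16.1 in knockout IFNγ libraries (SD, n = 5). In wild-type IFNγ libraries it came after Ccnd1, at 44.4 ± 3.98 against 53.2 ± 13.7 CPM per kb, a gap smaller than the SD of Ccnd1. Cdk4 (ENSMUSG00000006728) stood at 379, 349, 417, 293 and 256 CPM in wild-type vehicle libraries and 141, 146, 155, 156 and 124 CPM with IFNγ. The lowest vehicle library lay well above the highest IFNγ library. The fall was −1.22 ± 0.14 log2 (2.32-fold, adjusted p = 6.9e-07), with −1.38, −0.91 and −1.04 log2 by batch, and it was called in all 31 settings. In the knockout Cdk4 went from 312, 291, 287, 279 and 308 CPM to 232, 217, 209.9, 188 and 101 CPM. These groups did not overlap either, and the lowest library was replicate 5. The fall was −0.69 ± 0.14 log2 (1.61-fold, adjusted p = 0.0007), with −0.43, −0.57 and −1.61 log2 by batch, and it too was called in all 31 settings, at −0.41 log2 in batch 1 alone and −1.09 log2 in batches 2 and 3.

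Between the lines Cdk4 differed by −0.17 ± 0.14 log2 under vehicle (adjusted p = 0.41). Under IFNγ it was 1.28-fold higher in the knockout (0.36 ± 0.14 log2, adjusted p = 0.0493), a call just inside the threshold that held in 8 of 31 settings. By batch it was 0.58, 0.27 and −0.30 log2, and knockout IFNγ replicate 5, at 101 CPM, lay below every wild-type IFNγ library. The difference was called in batch 1 alone (0.60 log2) and without the IFNγ libraries of batches 2 and 3 (0.60 log2), and it was −0.0035 log2 in batches 2 and 3 alone. Leaving out any 1 of 15 libraries, 4 of them wild-type vehicle, 3 wild-type IFNγ, 4 knockout vehicle and 4 knockout IFNγ, ended the call. The fall with IFNγ was 0.53 ± 0.20 log2 smaller in the knockout (adjusted p = 0.12), which was not called. By batch this difference was 0.94, 0.34 and −0.57 log2, and in batches 2 and 3 alone it was −0.12 log2. It passed in 4 of 30 settings. These were batch 1 alone (0.98 log2, adjusted p = 1.0e-10) and the fit without the IFNγ libraries of batches 2 and 3 (0.78 log2, adjusted p = 0.00022). The others were the fits without knockout IFNγ replicate 5 (0.70 log2, adjusted p = 0.0085) and without knockout vehicle replicate 5 (0.66 log2, adjusted p = 0.025).

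The promoters of Cdk4 and Cdk2, which fell with IFNγ in wild-type cells in every setting, are shown with the letters searched for in capitals. RefSeq on GRCm38.p6 gave 9 promoter entries for 7 of the members, each running from 250 bases before the annotated start to 50 bases into the transcript, 5′ to 3′ on the strand of the gene. Ccnd1, Ccnd2 and Ccne2 had none. The searches were for the E box CACGTG, which reads the same on both strands and is bound by basic helix-loop-helix leucine zipper factors, and for E2F-type letters, TTTGGCGC or TTTCCCGC or TTTCGCGC or TTTGCCGC, on both strands. Capitals mark the E boxes in the first sequence and the E2F-type match in the second.
Cdk4, chr10:127063285-127063584, plus strand: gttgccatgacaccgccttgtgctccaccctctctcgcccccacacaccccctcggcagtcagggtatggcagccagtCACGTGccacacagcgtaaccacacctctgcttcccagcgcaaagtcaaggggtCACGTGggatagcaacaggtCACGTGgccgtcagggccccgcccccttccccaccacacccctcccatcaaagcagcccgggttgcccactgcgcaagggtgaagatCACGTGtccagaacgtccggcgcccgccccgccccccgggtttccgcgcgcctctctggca
Cdk2, chr10:128705002-128705301, minus strand: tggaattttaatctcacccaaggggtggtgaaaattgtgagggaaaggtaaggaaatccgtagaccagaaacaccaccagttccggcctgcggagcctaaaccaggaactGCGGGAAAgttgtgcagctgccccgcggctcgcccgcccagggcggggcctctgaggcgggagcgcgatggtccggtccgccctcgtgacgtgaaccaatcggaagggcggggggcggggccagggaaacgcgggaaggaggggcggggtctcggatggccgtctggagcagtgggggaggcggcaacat
The Cdk4 window holds 4 E boxes, whose first bases lie at positions −172, −118, −98 and −11 from the start. Of 32851 promoter entries of the same length 7.15% hold at least 1 E box and 0.0244%, that is 8 entries, hold at least 4. The Cdk2 window holds 1 E2F-type match, at position −140 on the other strand, a kind of match found in 2.26% of entries. Single E boxes lie at −220 in the Cdk6 window and at 35 in 1 of the 2 Cdkn2c windows. These are matches of letters, and no binding was measured here.

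Cdk6 (ENSMUSG00000040274), the other partner of the D-type cyclins, was higher in the knockout under both treatments. Wild-type vehicle libraries held 57.00, 61.7, 53.8, 49.4 and 59.02 CPM and knockout vehicle libraries 110.3, 120.3, 129, 84.8 and 78.9 CPM. The groups did not overlap, and the difference was 0.90 ± 0.18 log2 (1.87-fold, adjusted p = 0.00097), with 1.06, 0.78 and 0.42 log2 by batch. With IFNγ the levels were 65.8, 62.3, 57.2, 68.9 and 50.4 CPM in wild-type and 77.5, 83.3, 81.7, 117 and 160.0 CPM in knockout libraries. These did not overlap either. The difference was 0.76 ± 0.19 log2 (1.69-fold, adjusted p = 0.0029), with 0.39, 0.76 and 1.67 log2 by batch. It was called in all 31 settings, at 0.41 log2 without the IFNγ libraries of batches 2 and 3. The vehicle difference held in 30 of 31 and was lost in batches 2 and 3 alone (0.60 log2, adjusted p = 0.24).

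The response of Cdk6 to IFNγ was not called in either line, at 0.12 ± 0.18 log2 in wild-type cells (adjusted p = 0.59) and −0.023 ± 0.18 log2 in the knockout (adjusted p = 0.93). In the knockout the value near 0 was an average of opposite batches, at −0.57, 0.46 and 1.02 log2. Batch 1 alone gave a change of −0.54 log2 (adjusted p = 3.7e-08), and the fit without the IFNγ libraries of batches 2 and 3 gave −0.46 log2 (adjusted p = 0.00092). Cdk6 was a small part of the Cdk4 and Cdk6 total per kilobase of union exon length: 3.82% ± 0.81 in wild-type vehicle, 8.93% ± 0.718 in wild-type IFNγ, 7.60% ± 1.55 in knockout vehicle and 12.6% ± 8.27 in knockout IFNγ libraries (SD, n = 5). The wild-type groups did not overlap in this share. By coding length the shares were larger, 13.7% in wild-type vehicle and 34.5% in knockout IFNγ libraries, in the same order.

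Cdkn2c (ENSMUSG00000028551), the INK4 inhibitor of Cdk4 and Cdk6, fell with IFNγ in wild-type cells and was the member whose response differed between the lines. Wild-type libraries held 17.1, 19.2, 21.1, 13.99 and 14.2 CPM under vehicle and 7.66, 10.4, 9.76, 15.1 and 6.81 CPM with IFNγ. The groups overlapped only through the IFNγ library of batch 2, replicate 4. The fall was −0.82 ± 0.18 log2 (1.76-fold, adjusted p = 0.00073), with −1.04, 0.11 and −1.06 log2 by batch. Knockout libraries held 14.4, 13.2, 18.4, 15.6 and 9.99 CPM under vehicle and 17.5, 16.9, 15.97, 17.2 and 7.44 CPM with IFNγ, with the lowest value of each group in batch 3. The change there was 0.041 ± 0.18 log2 (adjusted p = 0.87). The difference of the responses was 0.86 ± 0.26 log2 (adjusted p = 0.0485), with 1.17, 0.029 and 0.64 log2 by batch. It held in 11 of 30 settings, among them batch 1 alone (1.21 log2, adjusted p = 1.4e-06). It was lost with the replicate block (0.87 log2, adjusted p = 0.081) and without any 1 of 15 libraries, at 0.75 to 0.95 log2.

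Under vehicle Cdkn2c differed between the lines by −0.28 ± 0.18 log2 (adjusted p = 0.26). Under IFNγ it was 1.49-fold higher in the knockout (0.58 ± 0.18 log2, adjusted p = 0.016), with 0.85, 0.19 and 0.13 log2 by batch, and was lost without wild-type IFNγ replicate 1 (0.47 log2, adjusted p = 0.0556), without a batch term and in batches 2 and 3 alone (0.15 log2). Without the 4 IFNγ libraries of batches 2 and 3 it was 0.88 log2.

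Cdkn1b (ENSMUSG00000003031), the CIP/KIP inhibitor, moved opposite to Cdkn2c in wild-type cells and rose with IFNγ in both lines. Wild-type libraries held 21.2, 17.4, 19.3, 36.8 and 29.9 CPM under vehicle and 29.6, 31.9, 31.2, 58.9 and 69.1 CPM with IFNγ. In every batch the IFNγ libraries lay above the vehicle libraries, although the groups as a whole overlapped, batches 2 and 3 being higher under vehicle too. The rise was 0.79 ± 0.15 log2 (1.73-fold, adjusted p = 0.00017), with 0.68, 0.68 and 1.21 log2 by batch. In the knockout the levels were 15.9, 16.8, 17.7, 41.4 and 24.6 CPM under vehicle and 19.00, 20.1, 22.5, 66.8 and 57.1 CPM with IFNγ. Here too each batch was higher with IFNγ, by 0.29, 0.69 and 1.21 log2. The fitted rise was 0.57 ± 0.15 log2 (1.48-fold, adjusted p = 0.0051). It was 0.28 log2 without the IFNγ libraries of batches 2 and 3, and it was lost on plain library totals (0.41 log2, adjusted p = 0.0579) and, as in wild-type cells, without a batch term.

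Between the lines Cdkn1b differed by −0.14 ± 0.15 log2 under vehicle (adjusted p = 0.53) and −0.36 ± 0.15 log2 under IFNγ (adjusted p = 0.062). The second passed in 8 of 31 settings, all lower in the knockout. Among these were DESeq2 (−0.38 log2, adjusted p = 0.0414), batch 1 alone (−0.57 log2) and the fits without wild-type IFNγ replicate 4 (−0.45 log2), knockout vehicle replicate 5 (−0.36 log2) or knockout IFNγ replicate 4 or 5 (−0.46 and −0.47 log2). The responses differed by −0.22 ± 0.21 log2 (adjusted p = 0.6).

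Cdk2 (ENSMUSG00000025358), the kinase of the G1 to S transition, fell with IFNγ in wild-type cells. It stood at 85.2, 85.1, 87.6, 81.4 and 67.2 CPM under vehicle and 56.8, 58.2, 65.7, 42.96 and 42.7 CPM with IFNγ. No IFNγ library reached the lowest vehicle library. The fall was −0.62 ± 0.11 log2 (1.53-fold, adjusted p = 0.00012), with −0.51, −0.92 and −0.65 log2 by batch, and was called in all 31 settings. Knockout libraries held 83.7, 82.5, 79.98, 82.5 and 76.9 CPM under vehicle, nearly the wild-type level (0.0091 ± 0.11 log2, adjusted p = 0.96). With IFNγ they held 77.3, 80.3, 77.6, 73.9 and 42.4 CPM, where replicate 5 alone lay far under the vehicle range. The change was −0.24 ± 0.11 log2 (adjusted p = 0.098), with −0.066, −0.16 and −0.86 log2 by batch. Under IFNγ Cdk2 was 1.31-fold higher in the knockout (0.39 ± 0.11 log2, adjusted p = 0.011), and by batch 0.38, 0.78 and −0.010 log2. This call was lost without a batch term (adjusted p = 0.07) and in batches 2 and 3 alone. The difference of the responses was 0.38 ± 0.16 log2 (adjusted p = 0.17) and passed without knockout IFNγ replicate 5 (0.50 log2, adjusted p = 0.024).

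The E-type cyclins, which activate Cdk2, were not called in any comparison of the fit described above, and their batches went different ways. Ccne2 (ENSMUSG00000028212) stood at 30.4, 31.98, 26.7, 12.7 and 9.25 CPM in wild-type vehicle and 34.99, 33.9, 40.3, 0.935 and 2.17 CPM in wild-type IFNγ libraries. In the knockout it was 24.1, 25.3, 21.9, 15.9 and 18.7 CPM under vehicle and 26.4, 29.9, 30.3, 2.55 and 5.76 CPM with IFNγ. Batch 1 was a little higher with IFNγ in both lines, and batches 2 and 3 were far lower in both. The changes by batch were 0.29, −3.77 and −2.09 log2 in wild-type and 0.28, −2.64 and −1.70 log2 in knockout cells. Over all libraries they came to −0.47 ± 0.48 log2 (adjusted p = 0.41) and −0.78 ± 0.49 log2 (adjusted p = 0.21). Batch 1 alone gave rises of 0.28 and 0.30 log2 (adjusted p = 0.0057 and 0.0055), and batches 2 and 3 alone gave changes of −2.91 and −2.14 log2 (adjusted p = 0.0011 and 0.0061). With no filter beyond 1 read the fit on all 20 libraries called Ccne2 lower with IFNγ in both lines (−0.51 and −0.81 log2, adjusted p = 0.035 and 0.00043). The 4 libraries with the fewest Ccne2 reads, 12 to 99 counts, were the IFNγ libraries of batches 2 and 3 in which Malat1 was at 955 to 1514 CPM of plain library totals. The part of that difference in the Ccne2 levels was not tested.

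Ccne1 (ENSMUSG00000002068) stood at 63.8, 63.8, 67.4, 29.1 and 28.98 CPM in wild-type vehicle and 61.7, 61.1, 65.2, 39.3 and 71.2 CPM in wild-type IFNγ libraries. In wild-type cells the change was 0.30 ± 0.18 log2 (adjusted p = 0.15), with −0.053, 0.43 and 1.30 log2 by batch. The vehicle and IFNγ libraries of batch 1 all lay between 61.1 and 67.4 CPM, and batches 2 and 3 had lower vehicle levels. Knockout libraries held 44.3, 43.6, 41.3, 27.2 and 42.01 CPM under vehicle and 61.7, 60.7, 62.8, 49.4 and 32.6 CPM with IFNγ, a change of 0.43 ± 0.18 log2 just outside the threshold (adjusted p = 0.0589). It passed in 10 of 31 settings, among them DESeq2 (adjusted p = 0.04), limma-voom (adjusted p = 0.0489) and each fit without replicate 5 of 1 group (0.40 to 0.57 log2). By batch it was 0.52, 0.86 and −0.36 log2, with batch 3 opposite to the others. Between the lines the differences were −0.29 ± 0.18 log2 under vehicle (adjusted p = 0.24) and −0.17 ± 0.18 log2 under IFNγ (adjusted p = 0.49), and those of Ccne2 were 0.23 ± 0.47 log2 (adjusted p = 0.76) and −0.069 ± 0.47 log2 (adjusted p = 0.92). In batch 1 alone both E-type cyclins were lower in the knockout under vehicle (−0.60 log2 for Ccne1 and −0.33 log2 for Ccne2, adjusted p = 1.4e-09 and 0.0029). The batches did not share a sign there. The ratios in batches 1, 2 and 3 were −0.59, −0.096 and 0.54 log2 for Ccne1 and −0.32, 0.32 and 1.01 log2 for Ccne2.

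**Figure D4:**
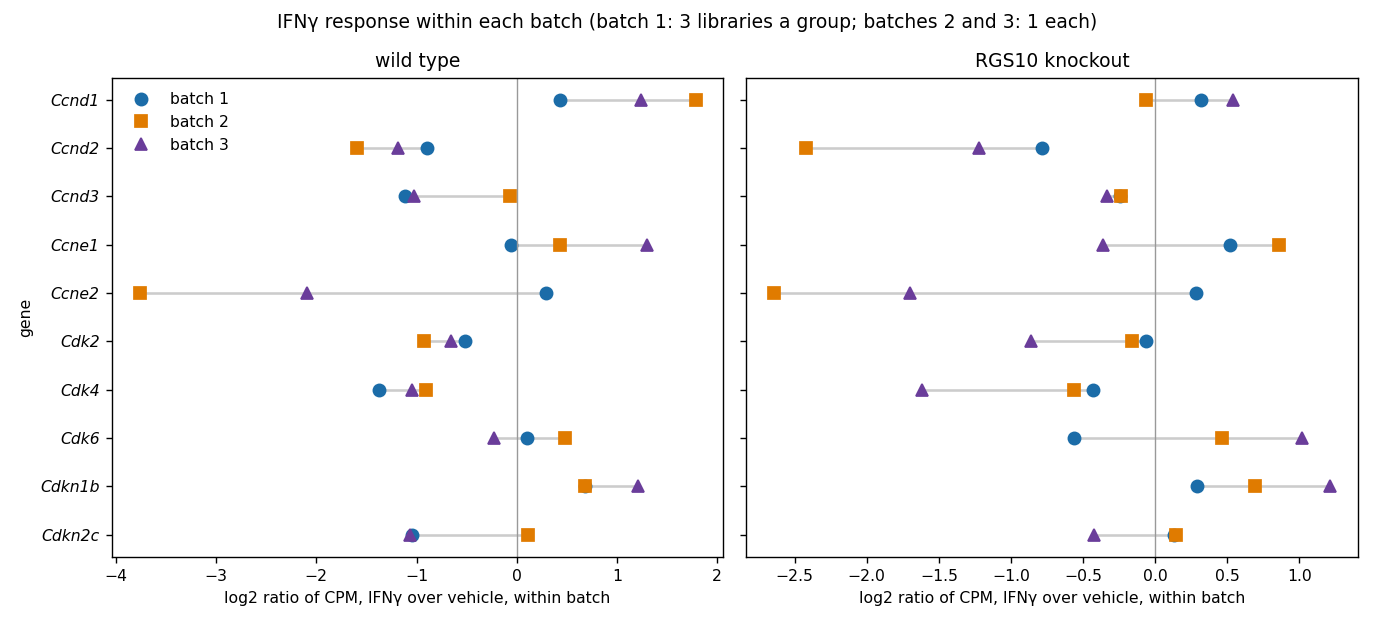
Log2 ratio of CPM, IFNγ over vehicle, within each batch, for wild-type (left) and knockout cells (right). Grey lines join the batches of a gene; all 3 batches share a sign for Ccnd2, Ccnd3, Cdk2, Cdk4 and Cdkn1b in both lines, while Ccne2 lies right of 0 in batch 1 and at −3.77 to −1.70 log2 in batches 2 and 3.

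The other genes of the pathway were counted by fixed lists, chosen with earlier results of these data known. Of 12 tested genes of the RB and E2F family, which the G1 kinases act on or release, 8 fell and 1 rose in wild-type cells, where 29.9% of all genes fell and 29.0% rose. The median was −0.83 log2 (−0.73, −0.80 and −0.61 log2 in batches 1, 2 and 3), against 0.012 log2 over all genes. The repressor E2f4 changed by −0.92 ± 0.11 log2 and the activator E2f1 by −0.82 ± 0.12 log2, and E2f3, another activator, rose by 0.43 ± 0.09 log2 (adjusted p = 1.1e-06, 9e-06 and 0.00035). In the knockout, where 21.8% of all genes fell and 21.4% rose, 6 of the 12 fell and 1 rose (median −0.42 log2, and −0.17, −0.68 and −0.27 log2 by batch), with E2f6 at −0.67 ± 0.13 log2, E2f4 at −0.56 ± 0.11 log2 and E2f2 at 0.42 ± 0.13 log2 (adjusted p = 0.00034, 0.00048 and 0.014). Between the lines under vehicle 2 of the 12 were higher in the knockout, E2f1 (0.67 ± 0.12 log2, adjusted p = 0.00024) and E2f3 (0.33 ± 0.09 log2, adjusted p = 0.0083), and 1 was lower, E2f2 (−0.68 ± 0.13 log2, adjusted p = 0.00052). Of all genes 12.5% were higher and 14.8% lower there. Under IFNγ 2 were higher, E2f1 (1.15 ± 0.12 log2, adjusted p = 4.3e-07) and E2f5 (0.81 ± 0.24 log2, adjusted p = 0.011), and 0 lower, beside 20% and 19.0% of all genes. None of the 12 was called in the difference of the responses by edgeR or limma-voom, where 4 were higher and 1 lower at an unadjusted p under 0.05 and DESeq2 called 2 higher and 1 lower.

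Of 15 genes that activate CDKs or turn over their inhibitors, 10 fell and 2 rose with IFNγ in wild-type cells (median −0.52 log2, and −0.63, −0.46 and −0.30 log2 by batch), beside the 29.9% and 29.0% of all genes. Cks1b, the cofactor with which Skp2 targets Cdkn1b for destruction, changed by −1.84 ± 0.18 log2 and the phosphatase Cdc25b by −1.63 ± 0.17 log2, while Fbxw7, which targets E-type cyclins, rose by 0.65 ± 0.14 log2 and Ambra1, which targets D-type cyclins, by 0.45 ± 0.11 log2 (adjusted p = 9.6e-08, 1.5e-07, 0.00077 and 0.0017). On plain library totals none of the 15 was called higher with IFNγ in either line, nor any of the RB and E2F genes. In the knockout 5 fell and 2 rose, beside 21.8% and 21.4% of all genes (median −0.31 log2, and −0.13, −0.15 and −0.49 log2 by batch), the ubiquitin ligase subunits Cul1 and Skp1a changing by −0.94 ± 0.13 log2 and −0.68 ± 0.12 log2, and again Fbxw7 (0.54 ± 0.14 log2) and Ambra1 (0.41 ± 0.11 log2) upwards. Under IFNγ 5 of the 15 were higher in the knockout, where 20% of all genes were, and, by edgeR, none lower (3 lower at an unadjusted p under 0.05, 1 by DESeq2 and none by limma-voom), led by Cks1b (1.84 ± 0.18 log2) and Cdc25b (1.59 ± 0.17 log2). Both also differed in their response between the lines (1.34 ± 0.25 log2 and 1.45 ± 0.23 log2, adjusted p = 0.0038 and 0.0012). Cdk7 and Ccnh, subunits of the CDK-activating kinase, were higher in the knockout under vehicle (0.54 ± 0.10 log2 and 0.75 ± 0.21 log2), where 4 of the 15 were higher (12.5% of all genes) and 1, Cdc25a, lower (−0.55 ± 0.14 log2, beside 14.8% of all genes).

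Among 5 other INK4 and CIP/KIP inhibitors, 2 rose with IFNγ in wild-type and 3 in knockout cells, where 29.0% and 21.4% of all genes rose. The list's median differed by batch: it was −0.069, 1.56 and 0.65 log2 in wild-type and 0.35, 1.51 and 1.15 log2 in knockout cells for batches 1, 2 and 3. Cdkn2b, an INK4 inhibitor, rose by 2.48 ± 0.34 log2 and 1.26 ± 0.31 log2, and Cdkn1a, a CIP/KIP inhibitor, by 0.91 ± 0.12 log2 and 0.77 ± 0.12 log2 (adjusted p = 3.8e-06, 0.0032, 2e-06 and 3.3e-05). Between the lines under vehicle Cdkn2b was 1.45 ± 0.34 log2 and Cdkn1a 0.35 ± 0.12 log2 higher in the knockout (adjusted p = 0.0029 and 0.029), and Cdkn1c and Cdkn2a, the 2 other calls, were lower (−1.61 ± 0.53 log2 and −0.74 ± 0.23 log2). In that comparison 12.5% of all genes were higher and 14.8% lower. The third rise in the knockout was that of Cdkn2d (0.77 ± 0.30 log2, adjusted p = 0.0446). Between the lines under IFNγ 1 of the 5 was called, Cdkn1c, which was lower in the knockout (−2.55 ± 0.61 log2, adjusted p = 0.0024). There 20% of all genes were higher and 19.0% lower.

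Downstream, 14 of 18 S phase genes that E2F drives fell and 1 rose with IFNγ in wild-type cells, beside 29.9% and 29.0% of all genes, with a median of −1.43 log2 (−1.23, −2.79 and −2.49 in batches 1, 2 and 3). The replication factor Gins1 changed by −2.36 ± 0.23 log2 and the ribonucleotide reductase subunit Rrm1 by −1.46 ± 0.15 log2, and the licensing factor Cdt1 rose by 0.70 ± 0.13 log2 (adjusted p = 7.3e-08, 1.6e-07 and 0.00019). In the knockout 12 of 18 fell, beside 21.8% of all genes, with a median of −0.87 log2 (−0.36, −1.43 and −1.56 by batch). Gins1 changed by −1.39 ± 0.22 log2 and the helicase subunit Mcm6 by −1.53 ± 0.30 log2, and without a batch term none of the 18 was called. Under IFNγ 12 of 18 were higher and 1 lower in the knockout, beside 20% and 19.0% of all genes (median 0.93 log2, and 0.75, 1.47 and 1.34 log2 by batch), Rrm1 by 0.95 ± 0.15 log2 and Gins1 by 1.42 ± 0.23 log2, with Cdt1 at −0.58 ± 0.13 log2. Under vehicle edgeR called none of the 18 between the lines (3 higher at an unadjusted p under 0.05, and 1 by DESeq2 and by limma-voom), beside 27.3% of all genes. The difference of the responses was called for Gins2 (0.85 ± 0.23 log2), Rrm1 (0.71 ± 0.21 log2) and, the other way, Cdt1 (−0.71 ± 0.19 log2), and with the replicate block for none. Of all genes 3.63% had a higher and 2.86% a lower response in the knockout. The later cyclins and Cdk1 all fell in wild-type cells (5 of 5, beside 29.9% of all genes), with a median of −2.31 log2 (−1.61, −3.96 and −3.49 log2 by batch), the mitotic cyclins Ccnb1 changing by −2.47 ± 0.23 log2 and Ccnb2 by −3.43 ± 0.40 log2. In the knockout 3 of 5 fell, beside 21.8% of all genes (median −0.77 log2, and −0.38, −0.91 and −1.57 log2 by batch). Ccnb1 changed by −0.83 ± 0.21 log2 and Ccnb2 by −1.30 ± 0.36 log2, and their responses differed between the lines by 1.64 ± 0.30 log2 and 2.13 ± 0.51 log2 (adjusted p = 0.0031 and 0.017). All 5 were higher in the knockout under IFNγ, beside 20% of all genes (median 1.32 log2, and 0.77, 2.97 and 2.65 log2 by batch). The comparisons of IFNγ in wild-type cells and of the lines under IFNγ share the wild-type IFNγ libraries.

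**Figure D5:**
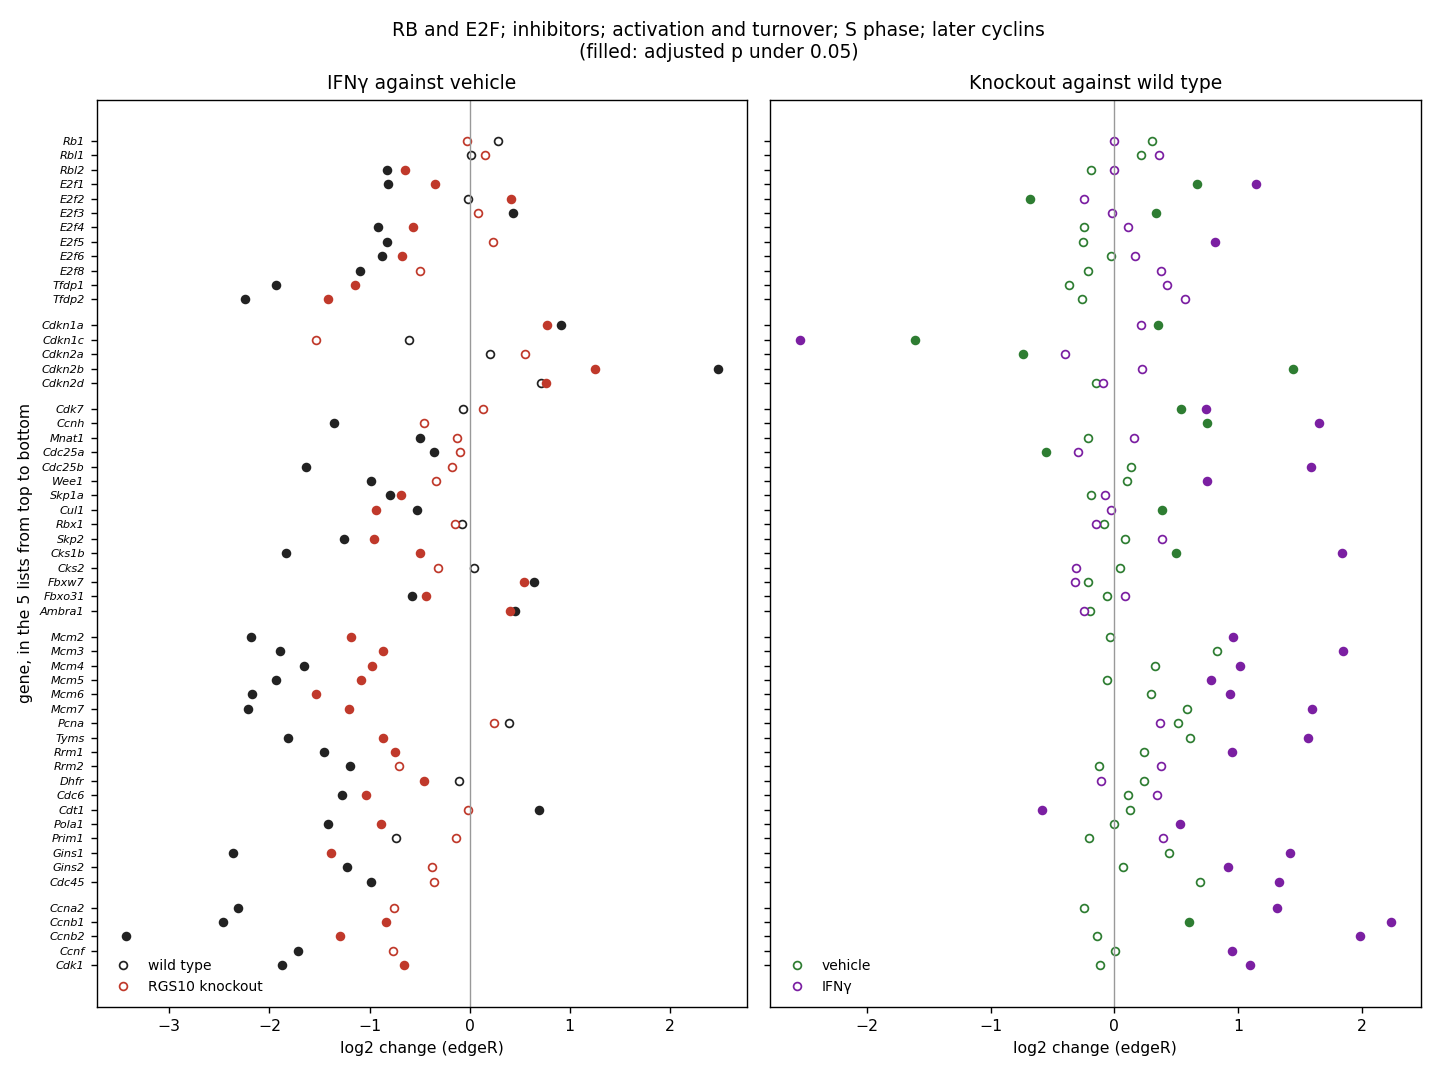
Log2 changes of the tested genes of 5 lists with IFNγ in either line (left) and between the lines under either treatment (right), filled where adjusted p was under 0.05. From top to bottom stand the RB and E2F family, other inhibitors, CDK activation and inhibitor turnover, S phase genes and later cyclins with Cdk1. The last 2 lists lie left of 0 with IFNγ for most genes, with 14 of 18 and 5 of 5 called lower in wild-type cells, beside 29.9% of all genes.

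Members were also set against each other across the 20 libraries, by Pearson correlation of log2 CPM after the mean of each batch was subtracted, as a description of libraries that share groups. Cdk2 and Cdk4 went together (r = 0.88) and opposite to Cdkn1b (r = −0.82 and −0.87). Ccnd1 ran opposite to Cdk2 (r = −0.85) and Ccne2 (r = −0.73), and its r with Ccnd2 and Ccnd3 was −0.35 and −0.38. Cdk6 had r = −0.13 to Cdk4, 0.026 to Cdk2 and 0.61 to Ccnd3. Over 11679 genes the pattern most like Ccnd1 was that of the cullin Cul2 (r = 0.96), and the one most like Ccnd2 that of the anthrax toxin receptor Antxr1 (r = 0.97). The nearest to Ccnd3 was the histone methyltransferase Ehmt2 (r = 0.96), to Cdk2 the TFIIH subunit Gtf2h4 (r = 0.98) and to Cdk4 the RNA helicase Eif4a3 (r = 0.98). For Cdk6 it was the ubiquitin ligase Ubr2 (r = 0.92), for Cdkn1b Fam71f2 (r = 0.98) and for Cdkn2c Tmem94 (r = 0.89). Ccne1 was nearest to the ubiquitin-conjugating enzyme Cdc34 (r = 0.86) and Ccne2 to Pidd1 (r = 0.97).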

How the data were processed

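Total RNA of BV-2 cells was sequenced as poly(A) libraries, 5 per group in 4 groups, and the labels call the replicates biological; p-values measure the spread between these libraries. The authors deposited a table of raw counts per Ensembl gene. Per the submitters' processing notes the tools were FastQC, Trim Galore, STAR and DESeq2 and the genome GRCm39; no source used here names the counting tool, the annotation or the strand setting, and overlapping genes may therefore share reads. Symbols and lengths came from GENCODE vM21, which named 91.23% of IDs.

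From the deposited counts, edgeR 4.0.16 (R 4.3.3) was run as a quasi-likelihood test with group and batch terms, TMM scaling and the filterByExpr filter on all 20 libraries (14 residual degrees of freedom), with Benjamini-Hochberg adjustment over 13755 genes and calls at 0.05. CPM values in the text use the TMM-scaled library sizes, and log2 CPM for correlations a prior count of 2. Library totals were 15866749 to 29157740 counts. Alternatives were size factors by RLE, plain totals, no filter beyond 1 read, DESeq2 1.42.0, limma-voom (limma 3.58.1), no batch term, a replicate block, batch subsets, only the groups compared, and each library left out; leaving out the IFNγ libraries of batches 2 and 3 was chosen after seeing the data. The members and lists were chosen with earlier results of these data known. Named genes are all members, Rgs10, up to 2 called genes each way with the smallest p per list and comparison, and the 2 genes most correlated with each member, of which 1 is given; others are named as chosen after their values were seen.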

Additional observations from a re-analysis of the deposited data

Results flagged for a closer look

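In 4 of 40 sets of 5 libraries (10 genes in 4 groups) 1 library stood apart by Dixon's criterion (critical value 0.71), where chance gives about 1 in 20 sets of libraries from 1 batch. Here each set spans 3 batches, and all 4 libraries are of batch 2 or 3, so that this rate does not apply as it stands. Ccnd3 was highest in wild-type IFNγ replicate 4, of batch 2, at 102.0 CPM. Ccne1 was lowest in knockout vehicle replicate 4, also of batch 2, at 27.2 CPM. Cdk2 and Cdkn2c were both lowest in knockout IFNγ replicate 5, of batch 3, at 42.4 and 7.44 CPM. The response of Cdkn2c to IFNγ differed between the lines, by 0.86 log2 (knockout minus wild type).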

How the results depend on the processing

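Of 19 called changes of the members, 5 were called the same way in every alternative: those of Ccnd1, Cdk2 and Cdk4 with IFNγ in wild-type cells, of Cdk4 with IFNγ in the knockout and of Cdk6 between the lines under IFNγ. Batches 2 and 3 alone leave 2 libraries a group and 3 residual degrees of freedom, which limits what could be called.

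All genes called with IFNγ were 8101 in wild-type cells (5101 in batches 2 and 3 alone) and 5937 in the knockout (3897 without a batch term). Between the lines under vehicle they were 3753, against 2318 without a batch term, 8072 in batch 1 alone, 847 in batches 2 and 3 alone, 6224 with only the groups compared and 7605 without the IFNγ libraries of batches 2 and 3. Under IFNγ they were 5363, against 9580 in batch 1 alone, 1920 in batches 2 and 3 alone and 8276 without those IFNγ libraries. In the difference of the responses they were 894, against 537 on plain library totals, 1480 by DESeq2, 138 without a batch term, 530 with the replicate block, 7096 in batch 1 alone, 121 in batches 2 and 3 alone and 5371 without those IFNγ libraries.

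Members called with IFNγ in the knockout were 3, against 1 without a batch term, 8 in batch 1 alone, 6 with only the groups compared and 7 without those IFNγ libraries. Between the lines under vehicle they were 2, against 8 in batch 1 alone and 0 in batches 2 and 3 alone, and under IFNγ 6, against 2 both without a batch term and in batches 2 and 3 alone. In the difference of the responses they were 1, against 2 on plain totals, 0 without the filter, without a batch term, with the replicate block and in batches 2 and 3 alone, 7 in batch 1 alone and 6 without those IFNγ libraries. The cause of these differences was not tested.

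Among changes called with either setting, signs turned for Ccne2 with IFNγ in wild-type cells (0.28 log2 in batch 1 alone and 0.46 without those IFNγ libraries), for Ccne2 with IFNγ in the knockout (0.30 in batch 1 alone), for Ccne2 between the lines under vehicle (−0.33 in batch 1 alone), for Ccnd1 between the lines under IFNγ (0.065 both in batch 1 alone and without those IFNγ libraries) and for Cdk4 between the lines under IFNγ (−0.0035 in batches 2 and 3 alone). Another 55 sign turns were of changes called in neither setting, the largest value being 1.37 log2 for Ccne2 between the lines under IFNγ in batches 2 and 3 alone.

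With each library left out, genes called ranged from 7593 to 8624 with IFNγ in wild-type cells, from 4911 to 6571 in the knockout, from 3212 to 4452 between the lines under vehicle, from 4613 to 5689 under IFNγ and from 542 to 1448 in the difference of the responses; members called were 7 throughout, 3 to 4, 2 to 3, 4 to 6 and 0 to 3. Same-numbered libraries did not deviate together within batch 1 (r = −0.042 to 0.040) and did so variably for replicates 4 and 5 (r = 0.073 to 0.47), which are also their batches, so the libraries share only a number or a batch. The replicate block gave 7, 3, 2, 4 and 0 members called. Replicates differed by more than sampling noise (chi-squared per degree of freedom at least 3.69).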
